A study of Bos taurus with 5 samples.

Results

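CCL2, SPP1, IL1RN and OLR1 are 4 genes of inflammation and immune cell traffic that were measured in the follicular wall of bovine ovarian follicles. They were chosen by accession because their signals were weak or not measured in the largest follicles (F1) and measured in the second-largest follicles (F2). Each was represented by 1 of the 10163 single-spot probes on the arrays, and all 4 probes were found. Because that contrast, and which of the F2 was stronger, chose the genes, the differences given for them are descriptions without a test. The arrays held 3 F1 and 2 F2, and each array carried the Cy3-labelled RNA of 1 follicle. All follicles came from pregnant Japanese Black cows (Bos taurus) and were ranked by size, with no treatment, and the cows' age is not given in the sources used here. Stroma and theca externa had been dissected away, which left granulosa cells and theca interna together, and collection was not timed to a phase of the follicular wave. Part of the cows contributed follicles of both ranks, but which arrays share a cow is not given in the sources used here. The follicles were treated as independent, so p-values measure only the spread between these 5 follicles.

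CCL2 (chemokine ligand 2) is a secreted attractant of monocytes that acts through the receptor CCR2. SPP1 (osteopontin) is a secreted matrix phosphoprotein that binds integrins and CD44 and acts as a cytokine for immune cells. IL1RN is the interleukin 1 receptor antagonist, a secreted protein that occupies the interleukin 1 receptor without activating it. OLR1 (LOX-1) is a surface receptor of endothelial cells and macrophages that takes up oxidized low density lipoprotein. In the ovary, leukocytes and their mediators are known to take part both in ovulation and in the breakdown of follicles that do not ovulate. The genes are therefore an attractant, a matrix ligand, a receptor blocker and a scavenger receptor rather than a single pathway.

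The signals below rest on 1 oligonucleotide of 60 bases per gene. Each was assigned to its gene by its label alone, and its bases were not aligned to a transcript. The first 30 bases of each (positions 1 to 30 as printed in the scanner files, 5′ to 3′) are shown.
CCL2 (NM_174006): tccctgggatggtggaagtgtcctcgcaag
SPP1 (NM_174187): actaaaagcttcagagtttagtctatgttc
IL1RN (NM_174357): tgtgtgttgtatatgttgagtggaaagtgt
OLR1 (NM_174132): tgtagatagtattgttatcatttgttgttc
The probes were not alike in base composition. G and C made up 41.7% of the whole CCL2 probe, 36.7% of that of IL1RN, 35% of that of SPP1 and 28.3% of that of OLR1, against a median of 43.3% over all probes. The OLR1 probe stood near the low end, since 2.81% of all probes had as low a share. The longest run of bases that any of the 4 shared with another probe on the array was 12 bases for CCL2 and 13 for each of the others. The letters ATTTA, searched on both strands, were found in 17.4% of all probes and AATAAA in 12.5%, and neither was found in these 4 probes.

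Signals are given relative to the median of the 100 GAPDH spots of the same array, with the spot error of the scanner software after ±. A spot was called well above background by the software's own flag. The lowest signal with that flag lay between 0.0124 and 0.0208 on the 5 arrays, and from 5465 to 5855 probes per array carried it. Each level is compared only with the level of the same probe on other arrays.

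CCL2 was measured in every follicle. Its signal was 0.0444 ± 0.0141, 0.0928 ± 0.0175 and 0.0264 ± 0.00806 in F1 replicates 1, 2 and 3. It was 0.592 ± 0.0596 and 0.488 ± 0.0504 in F2 replicates 1 and 2. Both F2 stood above all F1, and the weaker F2 was 5.26-fold above the strongest F1. The means were 0.0545 ± 0.0343 (SD, n = 3) in F1 and 0.540 ± 0.0738 (SD, n = 2) in F2. The difference of the mean log2 signals was 3.49, or 11.3-fold. This chemokine also varied among the F1, where the highest signal was 3.51 times the lowest. Among 5121 probes well above background in all F1, 2.42% had a range at least that wide.

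SPP1 was well above background in both F2 and in no F1. The F1 signals were 0.0166 ± 0.0136, -0.0107 ± 0.0149 and 0.00328 ± 0.00759, all below the lowest measured signal of their arrays. In the F2 they were 3.70 ± 0.370 and 1.34 ± 0.134. The osteopontin signal was at least 133-fold higher in F2, a bound for which each F1 took the array's smallest measured (well above background) signal, or its own signal where that was higher. The bound was 80.0-fold with F2 replicate 2 alone and 222-fold with F2 replicate 1 alone. F1 replicate 1 lay just outside the measured range, at 0.915 of the lowest signal well above background on that array.

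IL1RN was also well above background in both F2 and in no F1. The F1 signals were -0.00989 ± 0.0134, -0.0177 ± 0.0152 and 0.00442 ± 0.00764. The F2 signals were 0.357 ± 0.0365 and 0.0505 ± 0.0158, so the antagonist's transcript was strong in F2 replicate 1 and weak in F2 replicate 2. The difference was at least 8.04-fold, and this value rested on F2 replicate 1. Without that follicle the bound was 3.02-fold, and without F2 replicate 2 it was 21.4-fold. F2 replicate 2 lay 3.03 times above the lowest signal well above background on its array.

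OLR1 had F1 signals of -0.0182 ± 0.0137, -0.0114 ± 0.0153 and -0.00997 ± 0.00788, all below zero after background subtraction. The F2 signals were 0.574 ± 0.0580 and 0.283 ± 0.0321. This scavenger receptor was at least 24.1-fold higher in F2, and the weaker F2 was at least 13.6-fold above the bound of the strongest F1. The bound lay between 16.9-fold and 34.4-fold when 1 follicle was left out.

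**Figure D1:**
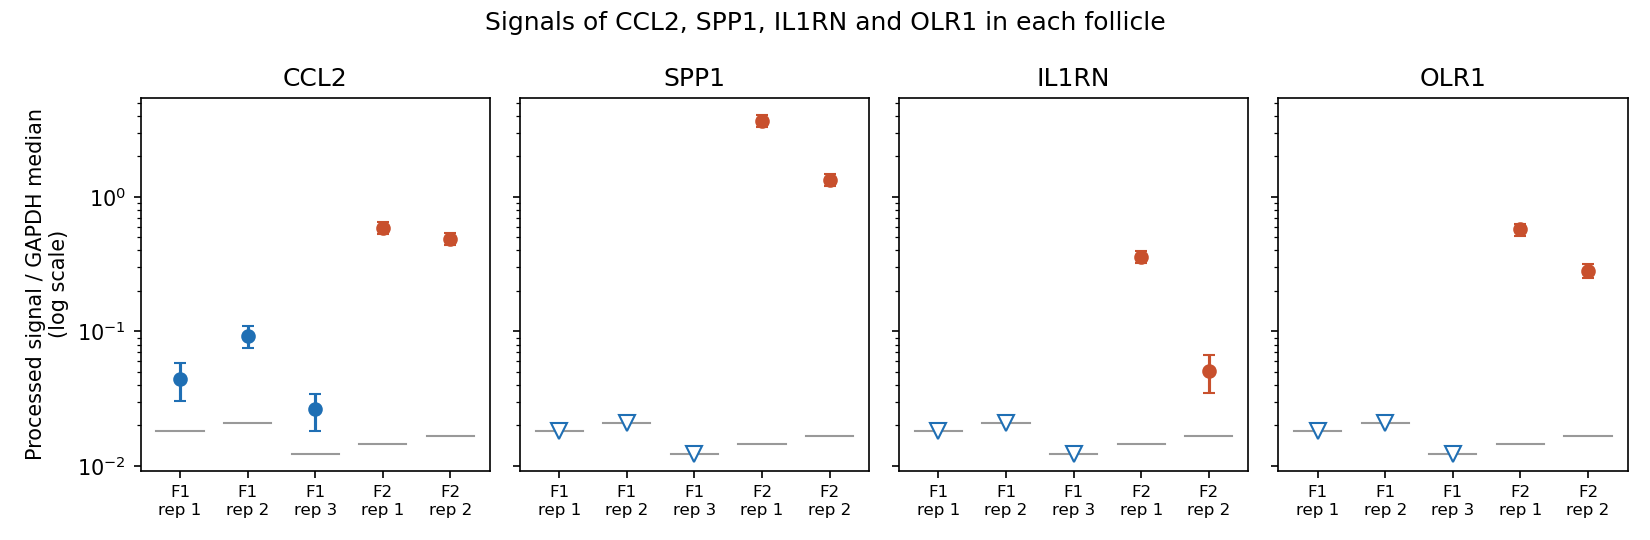
Signal of the CCL2, SPP1, IL1RN and OLR1 probes (vertical axis, processed signal over the GAPDH median of the array, log scale) in each of the 3 F1 (blue) and 2 F2 (red); bars are the spot error, grey lines each array's smallest measured signal, and open triangles on those lines mark spots that were not well above background, whose own signal is lower. CCL2 had a measured signal in all 5 follicles, the other 3 genes in F2 alone, and IL1RN in F2 replicate 2 lay at 0.0505, the lowest of the F2 points.

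The raw intensities give the same picture on the scanner's own scale and show where it is close to background. Each array held 79 negative control spots, whose raw mean intensity had a median of 213 to 255 and a maximum of 266 to 296. The raw mean of SPP1 was 4702 and 1550 in F2 and 245 to 260 in F1. That of OLR1 was 887 and 461 in F2 and 209 to 238 in F1. CCL2 gave 1018 and 750 in F2 and 273, 325 and 259 in F1 replicates 1, 2 and 3, so F1 replicate 2 alone of the F1 exceeded the brightest negative control of its array before subtraction. IL1RN gave 642 in F2 replicate 1 and 246 in F2 replicate 2, and the latter lay below the brightest negative control of that array, at 266. After the software's background subtraction, the IL1RN spot of F2 replicate 2 had an intensity of 50.5 against at most 21.2 among the negative controls there. No spot of the 4 genes was saturated or flagged as an outlier.

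**Figure D2:**
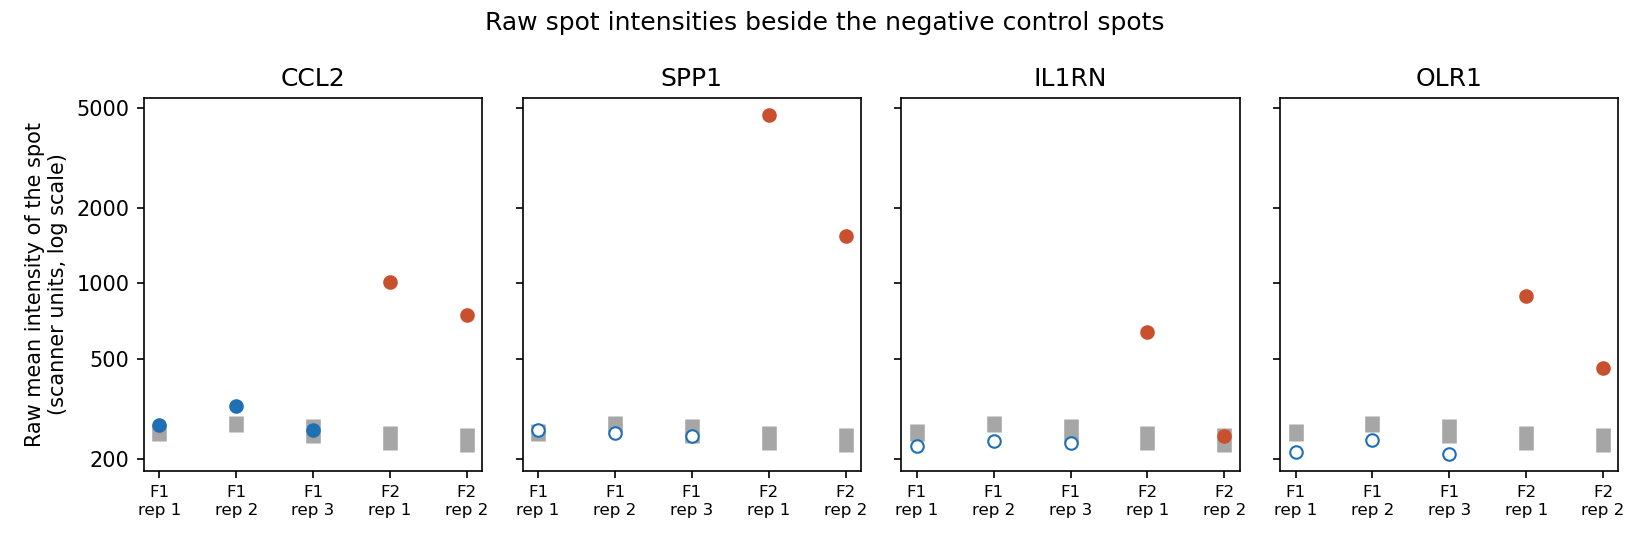
Raw mean intensity of each gene's spot (vertical axis, scanner units, log scale) in F1 (blue) and F2 (red), filled where the spot was well above background and open where it was not; grey bars run from the median to the maximum of the 79 negative controls on the same array. All F2 spots but the IL1RN spot of F2 replicate 2, at 246, stood above the bars.

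The pattern of SPP1, IL1RN and OLR1, measured in both F2 and in no F1, was met by 123 probes (1.21% of 10163), of which 28 had a gene symbol. CCL2, measured on all 5 arrays, was in a class that held 47.8% of all probes. All 4 genes had both F2 above all F1, which was the case for 15.7% of the 5528 probes tested. Since the genes were chosen on this pattern, the shares describe how common it was and support nothing.

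All 4 genes were also stronger in F2 replicate 1 than in F2 replicate 2. The opposite order was the usual one on this scale, since 20.1% of the 5268 probes measured in both F2 were stronger in replicate 1, and 40.7% of the 123 probes not measured in F1. The median ratio of F2 replicate 1 to F2 replicate 2 over those 5268 probes was 0.785. This order was part of the choice of genes, and nothing is read from the count.

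The size of the gap differed between the genes. IL1RN was 7.07 times stronger in F2 replicate 1 (95% interval from the spot errors, 3.71 to 13.5), and 0.209% of the 5268 probes had as large a gap in either direction. SPP1 was 2.77 times stronger (2.10 to 3.66), a gap reached by 3.25% of probes, and OLR1 2.03 times (1.51 to 2.74), reached by 9.95%. For CCL2 the ratio was 1.21 (0.915 to 1.61), an interval that includes equal signals, and 65.0% of probes had as large a gap. The chemokine was thus the most even of the 4 between the F2 and the interleukin 1 antagonist the least. With 75th percentile scaling instead of GAPDH, the median ratio over all probes was 1.01 and that of CCL2 was 1.56 (1.18 to 2.07), so whether the F2 differed in CCL2 depended on the scaling. IL1RN, SPP1 and OLR1 were then 9.08, 3.56 and 2.61 times stronger in F2 replicate 1. These intervals cover the error of a single spot on each array and not the spread between follicles, since each F2 is 1 follicle.

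**Figure D3:**
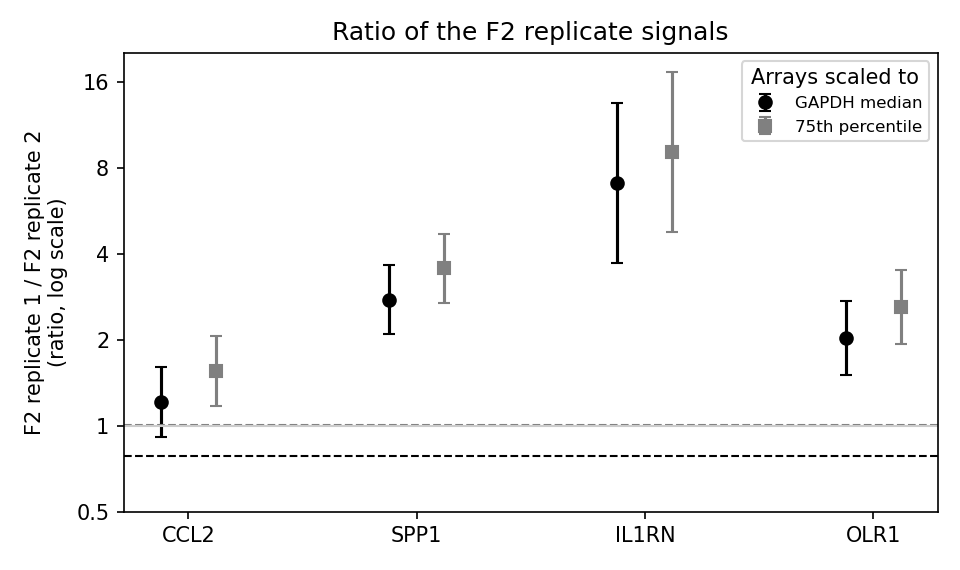
Ratio of the signal in F2 replicate 1 to that in F2 replicate 2 (vertical axis, log scale) for each gene, with arrays scaled to the GAPDH median (black circles) or to the 75th percentile (grey squares); bars are 95% intervals from the spot errors, and the dashed lines are the medians over 5268 probes, 0.785 and 1.01. The CCL2 interval on the GAPDH scale, 0.915 to 1.61, is the one that includes 1.

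The genes most like each of the 4 were found by the root mean square difference of the centred log2 profiles over the 5 follicles, among 829 tested probes with a symbol, a signal under the array's smallest measured one being set to it. Nearest to SPP1 was XCL1 (lymphotactin, a chemokine of T and NK cells) at 0.177, with signals of 4.29 and 1.41 in F2 and not over 0.0174 in F1. PLAUR, the urokinase receptor, followed at 0.432. Nearest to OLR1 were TIMP1, an inhibitor of matrix metalloproteases, at 0.285, the small heat shock protein gene CRYAB at 0.331 and the tight junction gene CLDN1 at 0.603. Nearest to CCL2 were SERPING1, the complement C1 inhibitor, at 0.344, ITGAV at 0.385 and the fatty acid binding protein gene FABP4 at 0.390. IL1RN lay nearest to NT5E, an ectoenzyme that makes adenosine, at 0.227, then to CA2 (carbonic anhydrase) at 0.507 and JCHAIN, the immunoglobulin joining chain, at 0.710. Among the 4 genes themselves the closest pair was CCL2 and OLR1, at 0.688, and the most distant was SPP1 and IL1RN, at 2.03. Each was nearer to genes outside the group than to another of the 4. With 829 candidates outside and so few inside this was likely beforehand, and nothing is read from it. Where a probe was off in F1, its F1 profile here is that of the arrays' lowest measured signals.

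The other genes of these pathways were read from lists that leave out the 4 genes, with limma (linear models with moderated variances) and p-values adjusted by the Benjamini-Hochberg method over all 5528 probes. Of 197 genes on 5 lists, 64 had a matched probe, 22 of these were not well above background on any array, as were 34.3% of all probes, and 33 could be tested. With an adjusted p under 0.05, 8 of the 33 were higher in F2 and 2 in F1, where all probes gave 5.08% and 6.39%. With 75th percentile or quantile scaling the pathway counts were 11 and 1. A gene not measured in every follicle enters the test through the group where it is high, so its call supports nothing. Of the 10 called, these were XCL1, CCL3, MSR1 and SAA3 through F2 and TNFAIP6 through F1. Among the 24 genes measured on all 5 arrays, 4 were called higher in F2 and 1 in F1, against 3.81% and 5.33% of the 4861 probes measured on all 5 arrays. The median log2 difference, F2 minus F1, of those 24 genes was 0.39, and it was -0.29 over the 4861 probes. With 3 follicles against 2, the smallest p-value of an exact permutation test is 0.1, so each call leans on the variance that limma shares across probes.

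Among chemokines and their receptors, 13 of 56 genes had a probe, and 5 of them were not well above background on any array. Of the 4 tested, 3 were called higher in F2, against 5.08% of all probes tested. XCL1, CCL3 and CCL8 entered the test only through F2. The calls of XCL1 and CCL3 therefore support nothing, and their p-values are not given. XCL1, well above background in 1 F1, was at least 132-fold higher in F2. CCL5, an attractant of T cells and monocytes, had signals of 0.0865, 0.320 and 0.183 in F1 and 1.03 and 0.780 for F2, which is 5.21-fold (log2 2.38 ± 0.56 SE, adjusted p by limma = 0.0435). CCL3, an attractant of macrophages that was well above background in 2 F1, was 3.81-fold higher in F2 by the mean log2 signals. CCL8, a close relative of CCL2, gave 0.0728 and 0.168 in F2 and reached 0.0601 in F1 replicate 2. It was not called, and its p-value is likewise not given. The receptors of CCL2, CCR2 and ACKR1, had no matched probe.

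The interleukin 1 family was sparsely measured. Neither of its 2 tested genes, IL18 and PYCARD, passed on the GAPDH scale, and both passed with 75th percentile or quantile scaling. The agonists that IL1RN opposes, IL1A and IL1B, were not well above background in any follicle, their signals lying between -0.0375 and 0.00453. IL1R1, IL1R2 and IL1RAP, the receptor chains, had no matched probe. IL18, a related cytokine, was well above background in F2 alone, at 0.0511 and 0.272. It entered the test only through F2, so its outcome on any scale supports nothing and its p-value is not given. Unlike IL1RN, it was stronger in F2 replicate 2. PYCARD, an inflammasome adaptor, gave 0.171 and 0.183 in F2 and 0.0519 to 0.0980 in F1 (adjusted p by limma = 0.0798).

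Of the osteopontin receptors, ITGAV and ITGB5 moved in opposite directions. ITGAV, the integrin alpha V chain, had signals of 1.43, 1.85 and 0.979 in F1 and 11.01 and 12.3 for F2, which is 8.49-fold (log2 3.09 ± 0.35 SE, adjusted p by limma = 0.00386). ITGB5, the beta 5 chain that pairs with it, had 53.3, 30.3 and 28.5 in F1 and 7.29 and 6.89 in F2, and was 5.05-fold higher in F1 (log2 difference -2.34 ± 0.36 SE, adjusted p by limma = 0.0116). Neither gene's groups overlapped, but both F2 stood above all F1 in 15.7% of the 5528 probes tested and below all F1 in 33.4%. CD44, a hyaluronan receptor that also binds osteopontin, gave 0.342 and 0.186 in F2 against 0.0718 to 0.140 in F1 (adjusted p by limma = 0.0824). ITGB1 gave 0.827 to 1.56 in F1 and 0.827 and 1.18 in F2 (adjusted p by limma = 0.660). ITGA4 was well above background in 1 F2 alone, at 0.0407, and ITGB3 and ITGA9 had no matched probe. Over the list, 8 of 12 genes with a probe were tested and 1 was called in each direction. Over all probes tested, 5.08% were called higher in F2 and 6.39% in F1.

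Beside OLR1, the lipoprotein and scavenger receptors were mostly without a probe, 5 of 28 having one. MSR1, the macrophage scavenger receptor, was well above background in both F2, at 0.0451 and 0.107, and in no F1, a bound of at least 4.16-fold. It was the called gene of the 4 tested, but it entered the test through its F2 signals and all its F1 signals lay at the floor of 0.001, so its p-value is not given and supports nothing. CD36, a receptor of fatty acids and oxidized lipoprotein, overlapped between groups, with 0.341, 0.804 and 0.222 in F1 and 0.164 and 0.246 in F2 (adjusted p by limma = 0.295). SCARB1, the high density lipoprotein receptor, was well above background in 2 F1 and 1 F2, with at most 0.0740.

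Of cytokines, nuclear factor kappa B and acute phase genes, 30 of 59 had a probe and 15 were tested. Of these 3 were called higher in F2 and 1 in F1, against 5.08% and 6.39% of all probes tested. SAA3, an acute phase protein made in inflamed tissue, had 1.08 and 1.78 in F2 and not over 0.0547 in F1, where 2 were well above background. The rise was 48.7-fold by the mean log2 signals. SAA3 entered the test only through F2, so its p-value is not given. PTGES, the prostaglandin E synthase, was 9.25-fold higher in F2 (log2 3.21 ± 0.35 SE, adjusted p by limma = 0.00338), with 0.913 and 0.701 against 0.0695 to 0.121. CD14, the lipopolysaccharide co-receptor of monocytes, was 3.17-fold higher in F2 (adjusted p by limma = 0.0208). TNFAIP6, a hyaluronan-binding protein of the expanding cumulus, went the other way and was at least 26.2-fold higher in F1. Its signals were 1.04, 0.151 and 1.14 in F1 and 0.0319 at most in F2. TNFAIP6 entered the test only through F1, so its p-value is not given. Several of the 10 calls depended on single F1 follicles. CCL3, CCL5 and TNFAIP6 lost the call without F1 replicate 1, CCL5 and TNFAIP6 without F1 replicate 3 and CD14 without F1 replicate 2. Whether the calls hold without either F2 cannot be told, since a single F2 is then left. No log2 difference of the called genes changed sign when any 1 follicle was left out. It lay between 2.84 and 3.30 for ITGAV, and between -2.50 and -2.05 for ITGB5. Normexp background correction ended the calls of MSR1, CCL3 and CD14, and 75th percentile or quantile scaling that of TNFAIP6.

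**Figure D4:**
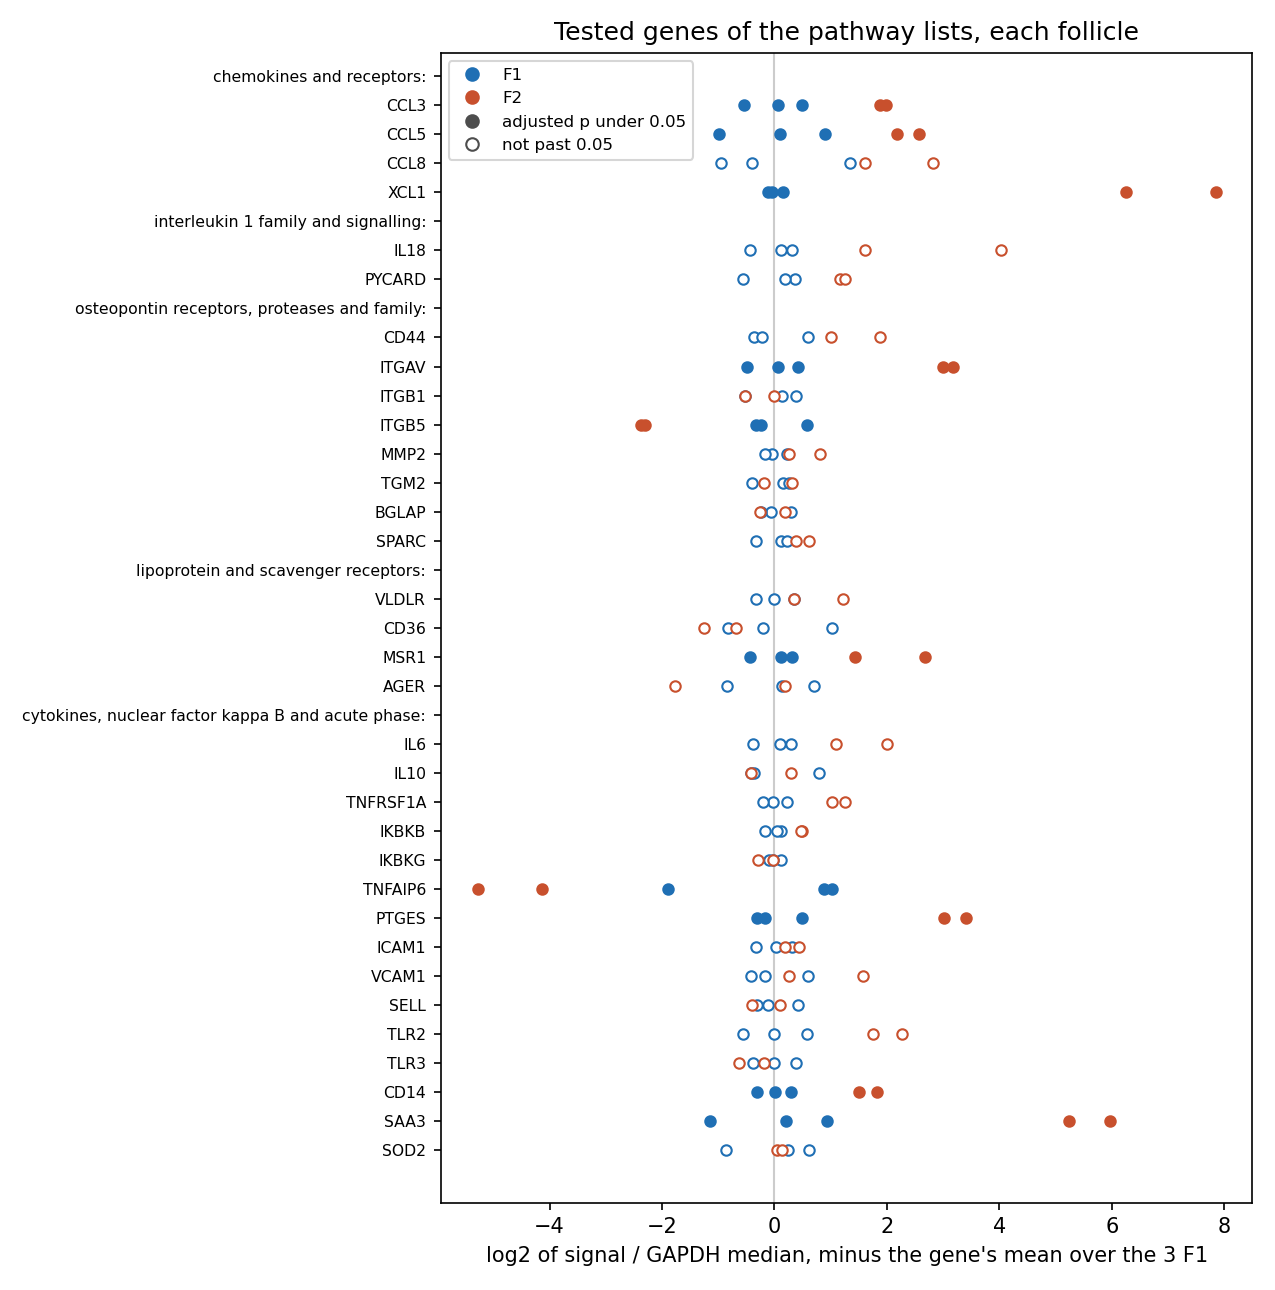
Signals of the 33 tested genes of the 5 pathway lists in each follicle (horizontal axis, log2 of the signal over the GAPDH median minus the gene's mean over the 3 F1), a signal under the array's smallest measured one being set to it; blue points are F1, red points F2, and filled points mark genes with a limma adjusted p under 0.05. XCL1 and SAA3 stand farthest to the right in F2, and TNFAIP6 and ITGB5 farthest to the left.

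Some markers of the cell types that a follicular wall can hold differed between the groups, and others did not. In bulk RNA, fewer cells of a type and less RNA per cell cannot be told apart. Over all 5528 probes tested, 5.08% were called higher in F2 and 6.39% in F1. Among the 4861 probes measured on all 5 arrays these shares were 3.81% and 5.33%. Of 22 macrophage or monocyte markers, 8 had a probe and 7 were tested. Among those measured on all 5 arrays CD14, AIF1 and TYROBP rose in F2 (adjusted p by limma from 0.0106 to 0.0310) while CYBB rose in F1 (0.0163). FCER1G, the remaining one, was lower in F2, at 0.0196 and 0.0237 against 0.0248 to 0.0342 in F1, and was not called. MSR1 and FCGR2B were well above background in F2 alone, with F1 signals at the floor, and their tests are not used. The summed signal of the 8 was 0.393 to 0.483 in F1 and 0.688 and 0.794 in F2 replicates 1 and 2. CD14 and MSR1 also stand on the pathway lists. Of 6 T or NK cell markers with a probe, CD3E was well above background in F2 alone, at 0.0337 and 0.0242, close to the lowest measurable signal. CD247 and GZMB, measured on all 5 arrays, were not called. Of 5 neutrophil markers with a probe, S100A12 passed and the others were not well above background on any array, and the summed signal was 0.0787 to 0.164 in F1 and 0.704 and 0.465 in F2. Of 2 B cell markers with a probe, JCHAIN was well above background in F2 alone, at 0.134 and 0.0865. CD79A, the other, was measured on all 5 arrays, at 0.214 to 0.354 in F1 and 0.165 and 0.238 in F2, and was not called. Neither of 2 pan-leukocyte markers, CORO1A and ITGB2, was called. No endothelial marker of the 5 with a probe was called, and platelet and smooth muscle markers had no probe. LUM, 1 of 4 stromal markers, rose in F2. The label of the tissue was met in F1, whose granulosa markers, some of them saturated, summed to 173 to 237. In F2 they summed to 6.86 and 6.84. All 6 were called higher in F1, but CYP19A1 and FSHR entered the test only through F1, so their calls support nothing. In the F2 the aromatase gene CYP19A1 was near background, at 0.00650 and 0.0279. Of 7 theca interna markers 4 were called higher in F1, with sums of 69.5 to 105 against 33.4 and 30.2. LHCGR, 1 of these 4, entered the test only through F1, so its call supports nothing. STAR, the cholesterol transporter of steroid synthesis, gave 16.1 and 9.91 in F2 against 3.14 to 5.56 in F1 (adjusted p by limma = 0.0593). The part of these cell types in the signals of CCL2, SPP1, IL1RN and OLR1 was not tested.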

How the data were processed

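RNA of 3 F1 and 2 F2 was read on one-color Agilent oligonucleotide arrays, 1 array and slide per follicle, all scanned on 1 day. The authors' Feature Extraction software (9.5.3.1 per the file headers) gave the deposited intensity of each spot, as raw mean and background-subtracted processed signal, with a spot error and flags. The authors also deposited a table of the ratio of processed signal to the GAPDH median of the array, with spots not well above background empty.

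Processed signals were divided by the median of the 100 GAPDH spots, raised to a floor of 0.001 and taken to log2. The 5528 of 10163 probes that were well above background throughout F1, throughout F2 or in both were fitted with limma 3.58.1 in R 4.3.3, without a block, at an adjusted p threshold of 0.05. On data simulated for this comparison with 5528 probes, 4% of log2 changes of 1, 66% of 2, 92% of 3 and 92% of 4 were recovered, with 5 false among 132 calls. A fold is a lower bound where a group was not well above background. Precision is limited by the number of arrays.

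RefSeq accessions stood on 1415 probes, and 1364 of them gave a symbol (RefSeq, ARS-UCD2.0, names alone), and a gene without a match is not analysed here. The 4 genes, the pathway and marker lists and the floor were chosen with earlier results of these data known. Named genes were the 4 genes with every value, pathway genes past the threshold, the 3 nearest profiles of each, and direct partners whatever their call, of which 2 genes are not reported here; CCL8, IL18, PYCARD, IL6, STAR and the markers were added after their values were seen. Replicate numbers were not used to pair the follicles. The deviations of same-numbered F1 and F2 from their group means correlated at 0.0389 and 0.1300. With 2 F2 the deviations of the F2 mirror each other, so these values cannot tell whether follicles share a cow. The alternatives were 75th percentile or quantile scaling, normexp with an offset of 50, the authors' values, other floors and filters, an intensity trend, a replicate block and leaving out each follicle.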

Additional observations from a re-analysis of the deposited data

How the results depend on the processing

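On the GAPDH scale the median probe was 0.27 lower in the F2 on the log2 scale, on the 75th percentile scale 0.06 lower. No difference of the 4 genes between F2 and F1, or between the F2, changed sign under the scalings, normexp, the authors' values, the floors or the left-out follicles tried for them. Background correction by normexp, which adds an offset, lowered the log2 differences F2 minus F1 to 2.32 for CCL2, 4.44 for SPP1, 1.24 for IL1RN and 2.21 for OLR1, and that of IL1RN between the F2 to 1.70. A floor of 0.01 gave 5.33 for OLR1, 3.75 for IL1RN and 7.55 for SPP1. Leaving out 1 follicle gave 3.06 to 3.97 for CCL2, 6.32 to 7.79 for SPP1, 1.60 to 4.42 for IL1RN and 4.08 to 5.10 for OLR1. Between F2 replicates 1 and 2 the log2 difference was 0.64 (75th percentile) and 0.60 (quantile) for CCL2, 1.83 and 1.74 for SPP1, and 1.38 on both for OLR1. The 634 calls over all probes became 346 with probes measured on at least 1 array, 214 without a filter and 160 to 550 without 1 follicle. Calls higher in F2 and in F1 were 281 and 353 on the GAPDH scale, 442 and 421 with the 75th percentile and 461 and 440 with quantile scaling. The 10 pathway calls became 17 with the floor at the lowest signal well above background, 2 without a filter and 8 to 12 without 1 F1. Counts without 1 F2 are not given, since a single F2 is then left. With a replicate block there were 578 calls over all probes and 9 in the pathway lists, CCL5 and TNFAIP6 no longer being called and IL6 being called. IL6 was well above background in F2 alone, so its call supports nothing. The slide could not be fitted as a block, since each array had its own. The cause of these changes was not tested. What limits IL1RN and the F1 signals is their closeness to background.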
